A study of Mus musculus with 28 samples.

Results

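Deep focal deletions are here short stretches of an autosome with a much lower copy number in a tumour than in a comparison DNA. The rule does not require that all copies of a stretch are lost. They were chosen as autosomal copy number segments at most 5 Mb long with a log2 copy ratio of -1 or lower, outside 4 antigen receptor loci and 1 interval of chromosome 19. By that rule 261 deletions were found in 22 of 24 tumours, out of 3357 autosomal segments of all lengths. Of the 1868 segments of at most 5 Mb outside the left-out intervals, they made up 14%. Length and log2 copy ratio chose the deletions, so both are given here as descriptions without a test.

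The tumours were analysed by exome sequencing, which reads the captured coding parts of the genome at 150 nt. They came from mice with a germline change of p53, and the question the labels pose is whether tumours with a dimeric p53 differ in their genomic alterations from those with a monomeric one. AD mice carried an allele for a dimeric protein (p53 AD/-) and RP mice one for a monomeric protein (p53 RP/-), each opposite a null allele. Both were on a 50% BALB/C - 50% C57BL6 background, and tumours were taken at the end point of the animals, with no age in the sources used here. Thymic lymphoma, a cancer of developing T cells, was sampled in 7 AD and 7 RP mice, and sarcoma, a cancer of connective tissue, in 5 AD and 5 RP mice. Tumours are numbered within a group in the order of the labels. The labels also hold 4 ear samples of such mice as normal controls, which are not analysed here. Their animal numbers match those of AD thymic lymphoma 1, RP thymic lymphoma 4, AD sarcoma 5 and RP sarcoma 3. Which DNA each tumour was compared with is not given in the sources used here, so losses that a mouse inherited and losses that its tumour acquired cannot be told apart.

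A focal deletion that removes both copies of a gene ends its expression in that cell, and recurrent losses of this kind are a classic sign of tumour suppressor genes. Clusters of near-identical genes, such as the receptors of the vomeronasal organ and several immune receptors, are known as places where copy number varies. In exome data a deletion is seen only at the captured targets, here called markers, so its ends are those of the outer markers and not the break points. A segment that rests on 2 or 3 markers is a much weaker observation than one that rests on 20. The deletions are therefore described in a class of 2 to 9 markers and a class of 10 or more.

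5 promoter windows show the 2 kinds of sequence that the deletions reached. Each is the 250 bases before a transcript start in RefSeq for GRCm38.p6, printed 5′ to 3′ on the strand of the gene, with every CG dinucleotide in capitals. The first 3 windows are rich in CG and were touched by deletions of 2 or 3 markers in AD thymic lymphoma 7. The last 2 are poor in CG and lie in a cluster of vomeronasal receptor genes that was deleted in several tumours.
Golga2: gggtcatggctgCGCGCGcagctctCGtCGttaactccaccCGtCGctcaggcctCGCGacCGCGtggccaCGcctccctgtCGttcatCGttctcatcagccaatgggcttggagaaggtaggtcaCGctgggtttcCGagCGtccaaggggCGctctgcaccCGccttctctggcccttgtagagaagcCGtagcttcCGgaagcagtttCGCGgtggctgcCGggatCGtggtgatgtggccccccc
Rars2: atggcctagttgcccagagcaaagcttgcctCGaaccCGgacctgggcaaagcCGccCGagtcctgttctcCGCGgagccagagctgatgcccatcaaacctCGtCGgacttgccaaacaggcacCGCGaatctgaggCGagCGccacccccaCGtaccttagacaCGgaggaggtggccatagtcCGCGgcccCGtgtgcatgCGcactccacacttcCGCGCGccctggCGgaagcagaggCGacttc
Pcna: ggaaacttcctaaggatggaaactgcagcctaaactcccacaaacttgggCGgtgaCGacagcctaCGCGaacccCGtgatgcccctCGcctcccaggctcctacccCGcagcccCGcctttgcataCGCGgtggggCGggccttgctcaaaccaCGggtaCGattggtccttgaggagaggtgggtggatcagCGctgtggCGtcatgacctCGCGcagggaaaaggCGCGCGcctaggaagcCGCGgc
Vmn1r107: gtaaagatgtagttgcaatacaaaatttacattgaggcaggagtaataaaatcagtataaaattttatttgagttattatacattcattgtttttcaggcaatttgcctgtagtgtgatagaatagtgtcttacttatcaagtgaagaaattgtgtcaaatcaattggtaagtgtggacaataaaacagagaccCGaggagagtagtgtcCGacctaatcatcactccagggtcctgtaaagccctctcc
Vmn1r116: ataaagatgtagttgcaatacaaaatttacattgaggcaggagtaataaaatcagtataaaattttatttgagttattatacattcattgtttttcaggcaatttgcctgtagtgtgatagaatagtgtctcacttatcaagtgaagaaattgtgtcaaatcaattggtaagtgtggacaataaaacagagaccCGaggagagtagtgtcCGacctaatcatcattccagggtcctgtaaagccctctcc
The Golga2 window, at chr2:32288076-32288325 on the plus strand, holds 25 CG, and 14.4% of the 20085 promoter windows of autosomal protein-coding genes hold as many or more. The Rars2 window, at chr4:34614707-34614956 on the plus strand, holds 23, a number that 18.1% of windows reach. The Pcna window, at chr2:132253181-132253430 on the minus strand, holds 22, a number that 20.2% reach. CG reads the same on both strands, so each site is counted once. The Vmn1r107 window, at chr7:20668668-20668917, and the Vmn1r116 window, at chr7:20872006-20872255, both on the plus strand, hold 2 CG each, as 85.4% of windows hold at least that many. The pair is identical at 247 of 250 positions, which is the near-identity of recent gene copies. Reads from such copies are hard to assign to one of them, so values for single genes of the cluster are uncertain.

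The whole series bears on these deletions in 3 ways. The T-cell label was checked at the left-out loci, where T cells delete DNA as they build their receptors: a deep segment lay in the T-cell receptor alpha and delta interval in 14 of 14 thymic lymphomas and 0 of 10 sarcomas, and in the beta interval in 13 and 0. The number of autosomal markers ran from 204845 to 204849 in AD and from 204917 to 204922 in RP thymic lymphomas, and from 205073 to 205076 in the sarcomas, so any processing that went with these totals cannot be told apart from genotype in the lymphomas or from tumour type. AD thymic lymphomas 4, 6 and 7 had 165, 249 and 408 autosomal segments of at most 5 Mb, while the other 21 tumours had between 18 and 95.

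AD thymic lymphoma 7 alone held 142 of the 261 deletions, and 119 remained without it. Its deletions were 34.8% of its short segments. In the other tumours that share was between 0% and 16.7%. It had 0 short segments at a log2 copy ratio of 1 or higher, as did AD thymic lymphomas 1 and 2 and RP thymic lymphoma 5. The median step between neighbouring autosomal segments was 1.12 in this tumour and 0.39 to 0.76 in the others. The part of segment noise in its deletions was not tested, and the main counts are therefore given with and without this tumour.

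The class of 2 to 9 markers held 220 deletions (84.3%) in 20 tumours. Their median length was 2317 bp, from 29 bp to 1.17 Mb, and 91 of them rested on 2 markers. The median log2 copy ratio was -1.45, and 43 lay at or below -2. The class of 10 or more markers held 41 deletions (15.7%) in 14 tumours, with a median length of 235 kb and a maximum of 3757 kb. Their median log2 copy ratio was -1.21, the lowest was -2.87, and 4 lay at or below -2. The deepest values thus came from the class with fewer markers. In the class of 2 to 9 markers, 20 of 220 deletions covered a whole protein-coding gene, against 29 of 41 in the class of 10 or more. Without AD thymic lymphoma 7 the classes held 96 and 23 deletions, of which 12 and 17 covered a whole gene and 22 and 2 lay at or below -2. Among all 261, 15 touched no protein-coding gene, 125 touched 1 and 121 touched several. In 64 the segments on both sides were also lost, at -0.3 or lower.

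**Figure D1:**
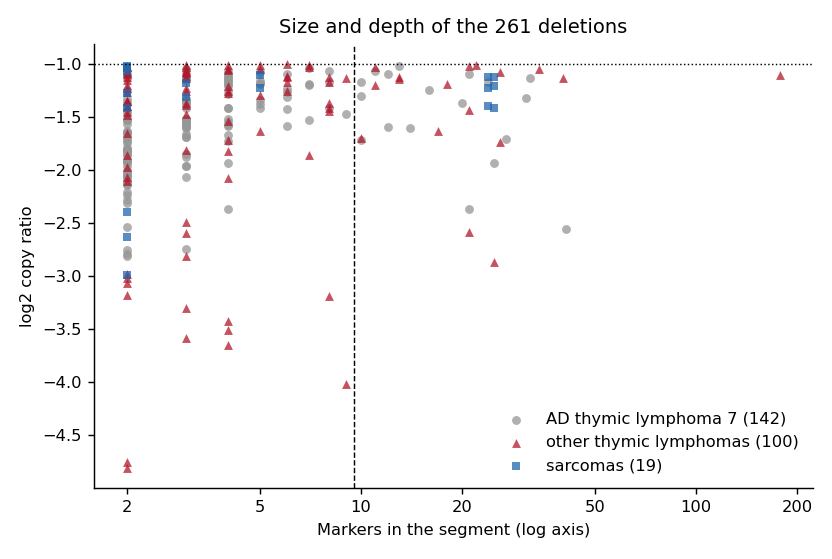
Each point is 1 of the 261 deletions, with its number of markers on a log axis and its log2 copy ratio; the dashed line parts the classes of 2 to 9 and of 10 or more markers, and the dotted line is the threshold of -1. Values below -3 are seen left of the dashed line, and AD thymic lymphoma 7 holds 142 of the points.

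The threshold of -1 passes through a continuous distribution. Just inside it lay segments at -1.006 (RP thymic lymphoma 5, chromosome 12) and -1.01 (AD thymic lymphoma 2, chromosome 17), and just outside it segments at -0.999 (AD thymic lymphoma 7, chromosome 11) and -0.9986 (AD thymic lymphoma 2, chromosome 2). Between -1.1 and -1 there were 44 deletions, and between -1 and -0.9 there were 41 segments that met the other parts of the rule.

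The number of deletions per tumour was widely spread in AD thymic lymphomas. From tumour 1 to tumour 7 it was 3, 2, 7, 22, 3, 22 and 142. In RP thymic lymphomas it was 7, 4, 4, 5, 7, 8 and 6. The AD lymphomas thus held both the lowest and the highest counts of the 14 lymphomas, and the RP counts lay inside their range. In AD sarcomas the counts were 2, 1, 3, 4 and 3, and in RP sarcomas 1, 3, 0, 2 and 0. The 2 sarcoma groups overlapped, and no sarcoma had more than 4.

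The mean number of deletions was 28.7 ± 50.7 (SD, n = 7) in AD and 5.86 ± 1.57 (SD, n = 7) in RP thymic lymphomas, with medians of 7 and 6. The difference of 22.9 did not pass a two-sided exact permutation test over 3432 splits (p = 0.186, 0.251 after Benjamini-Hochberg adjustment over 6 count tests). Without AD thymic lymphoma 7 it was 3.98. In the sarcomas the means were 2.6 ± 1.14 (SD, n = 5) in AD and 1.2 ± 1.30 (SD, n = 5) in RP animals, a difference of 1.4 (exact permutation p = 0.175, adjusted 0.251). The AD minus RP difference was larger in lymphomas than in sarcomas by 21.5 deletions, which an exact permutation test did not separate from 0 (p = 0.231, also 0.231 after adjustment over the 2 marker classes tested so). Without AD thymic lymphoma 7 this value was 2.58 (exact permutation p = 0.484).

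Within genotype the mean was higher in thymic lymphomas than in sarcomas by 15.4 deletions, and this difference did not pass the test either (exact permutation p = 0.0775, adjusted 0.241). Here 1 tumour decided the call. Without AD thymic lymphoma 7 the difference was smaller, 5.95, but passed (exact permutation, adjusted p = 0.00997), and without AD thymic lymphomas 6 and 7 it was 4.73 (exact permutation, adjusted p = 0.00484). The lowest lymphoma had 2 deletions, so the ranges of lymphomas and sarcomas overlapped in each of these settings.

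For the 10-marker class the counts from tumour 1 to tumour 7 were 0, 1, 2, 6, 1, 3 and 18 in AD and 3, 0, 0, 0, 0, 0 and 1 in RP thymic lymphomas. A deletion of this size was thus present in 6 of 7 AD and 2 of 7 RP lymphomas. The means were 4.43 ± 6.29 (SD, n = 7) and 0.571 ± 1.13 (SD, n = 7), and the difference of 3.86 did not pass the exact permutation test (p = 0.0804, adjusted 0.241). It was 1.60 without AD thymic lymphoma 7. In both sarcoma groups the mean was 0.6 ± 0.548 (SD, n = 5), with counts of 0, 1, 1, 1 and 0 in AD and 1, 1, 0, 1 and 0 in RP sarcomas. The lymphomas exceeded the sarcomas by 1.9 in this class (exact permutation p = 0.209, adjusted 0.251). The larger difference between genotypes in lymphomas than in sarcomas, 3.86, was also not separated from 0 (exact permutation p = 0.0830, adjusted 0.166). It was 1.60 without AD thymic lymphoma 7.

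**Figure D2:**
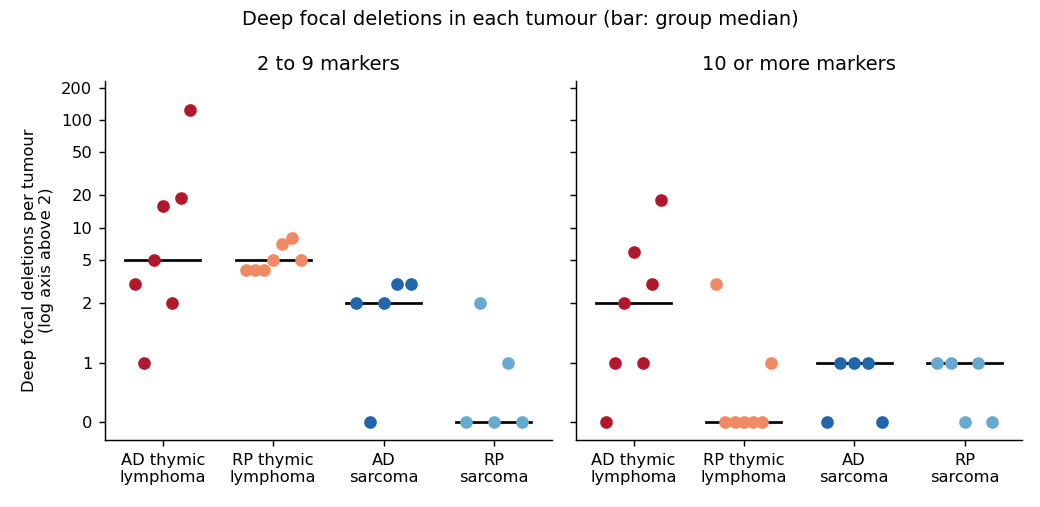
Points are tumours and give the number of deep focal deletions of 2 to 9 markers (left) and of 10 or more markers (right) on an axis that is logarithmic above 2; black bars are group medians. AD thymic lymphoma 7 stands at 124 and 18, and 5 of 7 RP thymic lymphomas have 0 deletions of the class of 10 or more markers.

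AD and RP thymic lymphomas had 18 touched genes in common and AD and RP sarcomas 37, nearly all of the latter from a Vmn1r cluster. Of 20665 autosomal protein-coding genes, 544 (2.63%) were overlapped by a deletion in at least 1 tumour, 223 of them without AD thymic lymphoma 7. In thymic lymphomas 473 genes were touched in AD and 82 in RP tumours, with 18 in both (3.81% of the first set and 22.0% of the second). AD thymic lymphoma 7 by itself touched 387 genes, so the first share depends strongly on it. The overlap without that tumour and the overlap to be expected were not worked out. Fisher's exact test per gene, adjusted by Benjamini-Hochberg over all genes, called 0 of 20665 genes (0%) between AD and RP thymic lymphomas, and 0 at an unadjusted p under 0.05 (smallest p = 0.0699). With 7 tumours against 7 the smallest p is 0.000583, and 241 genes would have to reach it together to pass, so this scan could not have called a single gene. In sarcomas 44 genes were touched in AD and 39 in RP tumours, with 37 in both (84.1% and 94.9%), all but Esp38 from a Vmn1r cluster on chromosome 7. That scan also called 0 of 20665 genes (0%), with a smallest p of 0.444 by Fisher's exact test.

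Among listed cancer and metabolic genes, the share touched was near that of all genes or 0, with 3 genes touched in all. The T-cell tumour suppressors had 1 of 44 genes touched, the p53 pathway 1 of 34, lipid and energy metabolism 1 of 47, genome maintenance 0 of 28 and the sarcoma suppressors 0 of 28. The first 3 shares are 2.27%, 2.94% and 2.13%, close to the 2.63% of all genes, so they say nothing particular about these lists. All 3 genes were touched in AD thymic lymphoma 7, and without it the count was 0 in each list. Ptpn2, a phosphatase that restrains JAK signalling in T cells, was reached at its edge of higher coordinates by a segment of 2 markers at -2.06 that covered 0.325% of the gene. Bbc3, which encodes the p53-induced death protein PUMA, had 31.4% of its length in a segment of 4 markers at -1.17. Pnpla2, the adipose triglyceride lipase, had 6.32% in a segment of 2 markers at -1.53. In no case was the whole gene covered, and no listed gene lay in a deletion of 10 or more markers.

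Some gene families that lie in clusters had more of their genes in a deletion than the 2.63% of all genes, and others had fewer. Of the 261 deletions, 60 (23.0%) held a gene of a listed family, and without AD thymic lymphoma 7 it was 45 of 119 (37.8%). The list counts unnamed gene models (36 deletions) and Rik clones (10 deletions) as families, although these are only kinds of name. The same share was not worked out for all short segments, so these 2 shares do not show an excess. Of 352 vomeronasal receptor genes, which encode pheromone receptors, 81 (23.0%) lay in a deletion, in 13 deletions of 10 tumours, and 38 did so without AD thymic lymphoma 7. Of the Skint genes, relatives of a selecting molecule for skin T cells, 4 of 11 (36.4%) were touched, and of the defensins, antimicrobial peptides of the gut, 9 of 70 (12.9%), none of them in that tumour alone. Unnamed gene models had 80 of 965 (8.29%) in a deletion, and 49 without that tumour. Below the share of all genes were the olfactory receptors, a large family of odour receptors, with 1 of 1104 (0.0906%), and the zinc finger genes, with 7 of 388 (1.80%), of which 3 remained without that tumour. The Nlrp and Sirp families had 0 of 18 and 0 of 4. Genes of a cluster share deletions and are not independent, and no test was made of these shares.

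The share by tumour type did not go the same way in both classes. In the 10-marker class, 6 of 6 deletions of the sarcomas held a gene of these families. All of these lay at the same locus, the Vmn1r cluster of chromosome 7. In the thymic lymphomas other than AD thymic lymphoma 7 it was 8 of 17, and in that tumour 4 of 18. In the 2 to 9 marker class the numbers were 3 of 13, 28 of 83 and 11 of 124. There the sarcomas lay below the lymphomas other than AD thymic lymphoma 7. The shares are descriptions of deletions that share tumours and loci, and no test was made of them.

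The 261 deletions fell into 216 loci, where a locus joins deletions that overlap by at least 1 base. A single tumour held 188 of them, 24 were held by 2 tumours, and 1 each by 3, 4, 7 and 9 tumours. Of the 28 recurrent loci, 14 were found in both AD and RP tumours and 5 in both lymphomas and sarcomas. Deletions with identical first and last markers in at least 2 tumours were seen in 15 of the 28. AD thymic lymphomas 6 and 7 shared 7 loci with each other and with no other tumour.

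**Figure D3:**
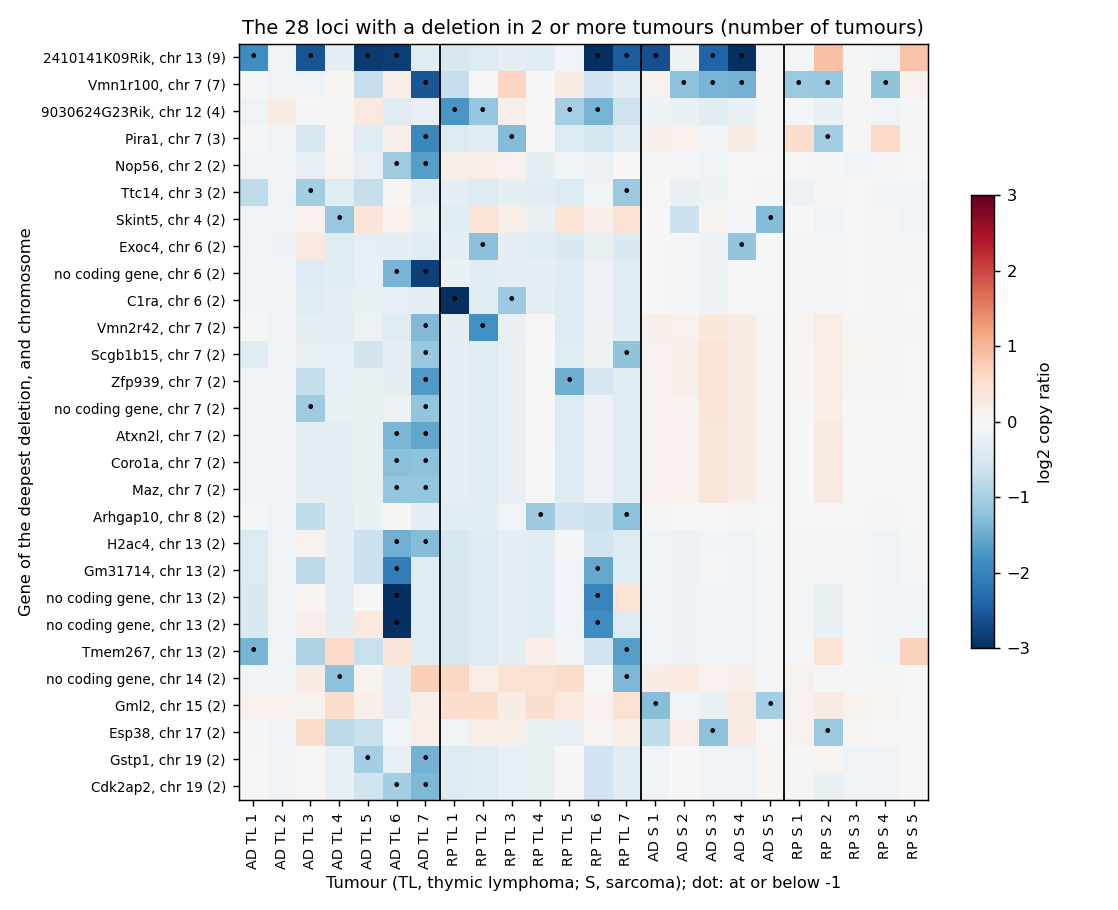
Rows are the 28 loci with a deletion in at least 2 tumours, named by a gene of the deepest deletion, and columns are the 24 tumours; colour is the log2 copy ratio of a tumour's own deletion, or, where it has none, over the deepest deletion of the locus. Dots mark -1 or lower. The 2410141K09Rik row has 9 dots in both tumour types, of which the 3 in sarcomas lie over a piece without a protein-coding gene. In the Vmn1r row 6 of 7 dots are in sarcomas, and the 4 dots of the chromosome 12 row are all in RP thymic lymphomas.

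The locus with most tumours was a stretch of unnamed gene models on chromosome 13 (GRCm38 13:65691428-66900748) that also holds 2410141K09Rik and the zinc finger gene Zfp640. It had 11 deletions in 9 tumours, which were AD thymic lymphomas 1, 3, 5 and 6, RP thymic lymphomas 6 and 7, and AD sarcomas 1, 3 and 4. Not all of them overlap each other, since the longest joins shorter ones. In AD thymic lymphoma 5 a segment of 25 markers and 742 kb stood at -2.87, the lowest value of any deletion with 10 or more markers. In AD thymic lymphoma 3 a segment of 21 markers inside the same stretch stood at -1.02. Inside 2410141K09Rik, RP thymic lymphoma 6 had -3.06 over 2 markers and AD thymic lymphoma 6 had -2.82 over 3 markers. A neighbouring piece of that gene with identical ends had -2.60 in AD thymic lymphoma 3 and -2.50 in RP thymic lymphoma 7.

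A piece of this locus without a protein-coding gene (13:66156615-66162928, 2 markers) recurred with identical ends in AD sarcomas. Its log2 copy ratio was -2.63, -0.15, -2.39, -2.99 and -0.06 in AD sarcomas 1 to 5. In RP sarcomas 1 to 5 it was -0.04, 0.89, -0.07, -0.13 and 0.85. Thus 3 of 5 AD sarcomas stood far below the other sarcomas, while RP sarcomas 2 and 5 stood above 0. The rule had picked these 3 tumours here for their low values, so that gap was set by the choice and does not bear on genotype. In AD thymic lymphomas 1 to 7 it was -0.41, -0.13, -1.02, -0.29, -2.87, -0.85 and -0.33, and in RP thymic lymphomas between -0.89 and -0.07. All 14 lymphomas thus lay below 0 here, AD thymic lymphoma 5 the furthest, and the RP sarcomas held values on both sides of 0.

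The cluster of Vmn1r genes on chromosome 7 (7:20167459-23273194) was deleted in 7 tumours, each time over 24 or more markers. AD thymic lymphoma 7 had the longest deletion, of 41 markers and 3106 kb at -2.56, which covered 81 protein-coding genes whole, among them Vmn1r100, Vmn1r101 and Vmn1r103. AD sarcomas 2, 3 and 4 stood at -1.23, -1.40 and -1.42, and RP sarcomas 1, 2 and 4 at -1.12, -1.13 and -1.21. Over the part from 20593378 to 21426999, which also holds Vmn1r107 and Vmn1r116, AD sarcomas 1 and 5 had 0.13 and 0.04 and RP sarcomas 3 and 5 had 0.04 and 0.04. So 6 of 10 sarcomas stood at or below -1.12, 4 stood near 0, and none lay between. Of these 6, 3 were AD and 3 were RP. In thymic lymphomas AD tumour 7 stood alone over the same part and the other 13 were spread from -0.74 to 1.02: AD tumours 1 to 7 had -0.04, -0.11, 0.96, 0.77, -0.69, 0.45 and -2.56, and RP tumours 1 to 7 had -0.74, 0.72, 1.02, 0.02, 0.75, -0.57 and -0.34. These 6 deletions are the whole 10-marker class of the sarcomas.

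Another recurrent locus lay on chromosome 12 (12:22450162-24498631), among gene models and Taf1b, which encodes a subunit of an RNA polymerase I initiation factor. It was deleted in RP thymic lymphomas 1, 2, 5 and 6, at -1.74, -1.17, -1.006 and -1.39, the first over 26 markers and the others over 3 to 8. Over its first 102 kb the AD thymic lymphomas had -0.10, 0.23, -0.07, -0.06, 0.29, -0.31 and -0.25. RP tumours 1, 2 and 6 lay below them, but the rule had picked these tumours here for their low values. That gap was therefore set by the choice and does not bear on genotype. RP tumours 3, 4, 5 and 7 had 0.16, 0.01, -0.29 and -0.73 there, and 10 of 10 sarcomas lay between -0.31 and -0.03. Taf1b itself was reached only at an edge, over 0.0850% of the gene, by the deletion of RP thymic lymphoma 1. That tumour had a further deletion nearby (12:19563094-20144845) of 21 markers at -2.59, where the other 23 tumours ran from -0.76 to 0.23.

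Pirb and the Pira genes, inhibitory and activating immune receptors of myeloid and B cells, were touched on chromosome 7 (7:3719636-3895501) in 3 tumours. AD thymic lymphoma 7 stood at -1.93 over 25 markers and covered Pira1 and Pira2. RP thymic lymphoma 3 stood at -1.30 over 5 markers around Pira2, and RP sarcoma 2 at -1.04 over 2 markers within Pirb. The 3 deletions differ in extent, and over the longest of them the other 23 tumours had a median of 0.02 and ran from -0.88 to 0.58.

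Ttc14, which encodes a protein with tetratricopeptide repeats, lay under deletions of 10 or more markers in 1 AD and 1 RP thymic lymphoma (3:33800278-33808685). RP thymic lymphoma 7 had -1.12 over 13 markers that span 55.8% of the gene, and AD thymic lymphoma 3 had -1.04 over 11 markers that span 51.3%. Both segments stay inside the gene. Over the second one, AD thymic lymphomas 1 and 5 had -0.79 and -0.71. The 10 other lymphomas, AD and RP, lay between -0.41 and 0.03, and the 10 sarcomas between -0.19 and 0.02. No test was made because the gene was chosen on these values.

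Shared ends also linked pairs of tumours at single genes. Arhgap10, which encodes a GTPase-activating protein, carried the same 3-marker segment (8:77346271-77358546) at -1.08 in RP thymic lymphoma 4 and -1.23 in RP thymic lymphoma 7. Exoc4, which encodes an exocyst subunit, carried one (6:33296732-33332210) at -1.26 in RP thymic lymphoma 2 and -1.19 in AD sarcoma 4. C1ra, a complement protease gene, had -3.18 in RP thymic lymphoma 1 and -1.10 in RP thymic lymphoma 3 over the same 2 markers. Each of these segments covers less than 10% of its gene. Esp38, which encodes a secreted exocrine gland peptide, lay in a 5-marker segment with the same ends in AD sarcoma 3 at -1.23 and RP sarcoma 2 at -1.11. These pairs were named after their values were seen.

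RP thymic lymphoma 6 and AD thymic lymphoma 6, tumours of different mice and genotypes, shared chromosome 13 losses. Of 8 deletions in RP thymic lymphoma 6, 7 lay on chromosome 13, and 3 (37.5% of its 8, and 13.6% of the 22 in AD thymic lymphoma 6) had the same ends in both tumours. These were 13:65348483-65400460 with Gm7762 and Gm31714, at -1.54 in RP and -2.08 in AD thymic lymphoma 6, and 2 segments without a protein-coding gene. The segment at 13:67885468-67887472 stood at -1.97 and -2.98, and that at 13:98988927-98990390 at -1.86 and -3.02. In the other 22 tumours the last one ran from -0.49 to 0.30. Chromosome 13 held 33 of the 261 deletions, in 11 tumours, and 25 without AD thymic lymphoma 7.

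Of the deletions with 10 or more markers, 32 of 41 were the lowest value of the 24 tumours over their stretch, and in 29 no other tumour reached -1. The median of the other 23 tumours lay within 0.3 of 0 for 39 of them. These numbers describe the rule's own values and are given without a test.

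**Figure D4:**
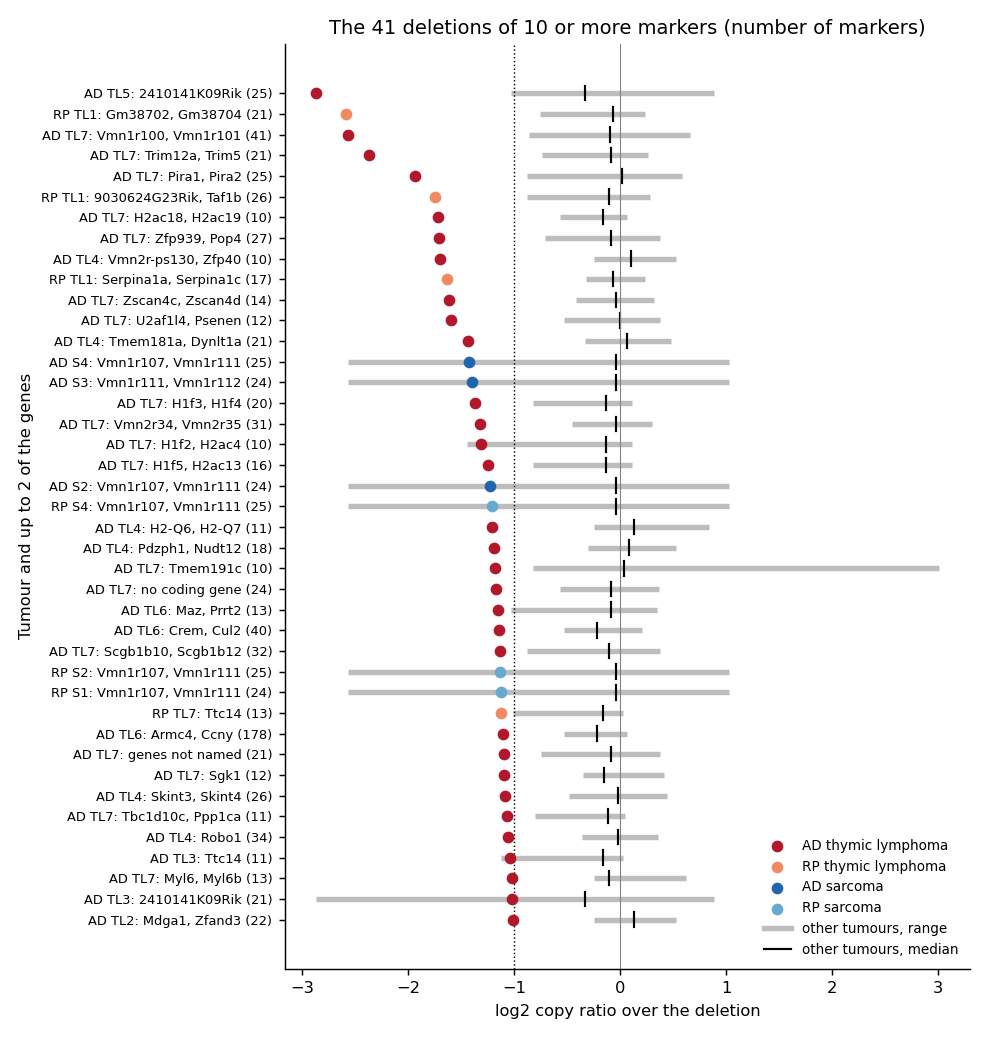
Each row is 1 of the 41 deletions with 10 or more markers: the coloured point is the log2 copy ratio in the tumour that carries it, the grey line is the range of the other 23 tumours over the same stretch and the black tick their median. In 32 rows the point stands left of the grey line; the 9 that lie inside it are the 6 Vmn1r rows of the sarcomas, the 2410141K09Rik and Ttc14 rows of AD thymic lymphoma 3 and the H1f2 row of AD thymic lymphoma 7.

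The longest deletion, on chromosome 18 in AD thymic lymphoma 6, was 1 of a pair around a gain. A segment of 178 markers (18:6765264-10522087) stood at -1.11, and one of 40 markers (18:3122491-3511981) at -1.14. Between them a segment of 148 markers stood at 1.85. The long deletion covered 12 genes whole, among them Rock1, a kinase, Fzd8, a Wnt receptor, Wac, an adaptor of histone ubiquitination, and Thoc1, an mRNA export factor. The shorter one covered Crem, a cAMP-responsive transcription factor, and Cul2, the scaffold of the VHL ubiquitin ligase, and reached Bambi, a decoy receptor of TGF-beta signalling. Over the long deletion the other 23 tumours ran from -0.53 to 0.06, so none came near it.

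AD thymic lymphoma 4 carried 14 of its 22 deletions on chromosome 17, between 6270582 and 81441896, 4 of them with 10 or more markers. Their values ran from -4.81 to -1.14. The mean of the whole chromosome was -0.64 in this tumour and between -0.27 and 0.52 in the others, so these deletions lie on a chromosome that was lower as a whole. Of 38 H2 genes, which encode the antigen-presenting proteins of the major histocompatibility complex, 6 were touched, and this tumour held all 6. H2-Q6 and H2-Q7, which encode non-classical class I proteins, lay in 11 markers at -1.21, where the others ran from -0.25 to 0.84. Tmem181a and Dynlt1a, a dynein light chain gene, lay in 21 markers at -1.44, and Cntnap5c, Nudt12 and Pdzph1 in 18 markers at -1.19. Vmn2r113 and Zfp40 lay in 10 markers at -1.70.

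Outside chromosome 17 the same tumour had a deletion within Robo1, the receptor of the guidance factor Slit (16:72145648-73044347). It spans 34 markers and 88.1% of the gene at -1.05, while the segments on its sides stood at 1.10 and 0.28. In the other 23 tumours the stretch ran from -0.36 to 0.36. Skint3, Skint4 and Skint9 lay in 26 markers at -1.08, where the others ran from -0.48 to 0.44. In AD thymic lymphoma 2, 22 markers across Mdga1, a cell adhesion gene, and Zfand3 stood at -1.01, close to the threshold, and the others ran from -0.25 to 0.52. In RP thymic lymphoma 1, 17 markers over 4 of the 6 Serpina1 genes, which encode alpha-1 antitrypsin, stood at -1.64, where the others ran from -0.32 to 0.23.

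AD thymic lymphoma 7 had 18 deletions of 10 or more markers, and 37 of its 142 deletions lay on chromosome 7. Trim5 and Trim12a, antiviral genes of the tripartite motif family, lay in 21 markers at -2.37, with the other 23 tumours between -0.74 and 0.27. A segment of 14 markers at -1.61 reached the 4 Zscan4 genes, which are active in early embryos, and one of 31 markers at -1.32 reached 7 Vmn2r genes. Psenen, which encodes a gamma-secretase subunit needed for Notch cleavage, and U2af1l4 lay in 12 markers at -1.60. Segments of 11 to 13 markers also lay in Sgk1, a kinase gene (-1.10), Myl6, a myosin light chain gene (-1.02), and Tbc1d10c with Ppp1ca, the latter a catalytic subunit of protein phosphatase 1 (-1.07). A segment of 24 markers at -1.17 lay in Snhg14, a long RNA that hosts small nucleolar RNAs of an imprinted region, and AD thymic lymphoma 3 had 3 of these markers at -1.06.

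Histone genes lay in some deletions of AD thymic lymphomas 6 and 7. They encode the proteins that package DNA and lie in a few dense clusters. Of 67 histone genes, 55 lay in 5 deletions of these 2 tumours, at -1.72 to -1.25. Only 8 did so without AD thymic lymphoma 7, so most came from that tumour. Of all genes, 544 of 20665 (2.63%) were touched. Genes of a cluster share deletions, so the 55 are not independent. The stretch of chromosome 13 with H1f2, H3c1 and H4c1 (13:23710626-23763716) had -1.31 in AD thymic lymphoma 7 and -1.45 in AD thymic lymphoma 6. In the other AD thymic lymphomas it ran from -0.65 to 0.11, in RP thymic lymphomas from -0.59 to -0.06, and in sarcomas from -0.16 to -0.04. The cluster on chromosome 3 with H2ac18 and H2ac19 had -1.72 in AD thymic lymphoma 7 and -0.56 in AD thymic lymphoma 6. The histone family was drawn up after the deletions were seen and is a description.

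AD thymic lymphomas 6 and 7 overlapped elsewhere as well. Counting the histone stretch above, 7 deletions of AD thymic lymphoma 7 overlapped one of AD thymic lymphoma 6. That is 4.93% of the 142 in the first and 31.8% of the 22 in the second. The non-coding RNA Gt(ROSA)26Sor, whose locus is widely used for knock-in alleles, was hit in both over the same 2 markers, at -2.81 in AD thymic lymphoma 7 and -1.40 in AD thymic lymphoma 6. Nop56, a nucleolar protein gene, stood at -1.66 and -1.06, and Cdk2ap2, a cell cycle gene, at -1.34 and -1.02. Mapk3, the kinase ERK1, and Coro1a, an actin regulator of T cells, shared a segment at -1.24 and -1.26. Gstp1, a detoxifying enzyme gene, stood at -1.42 in AD thymic lymphoma 7 and, with Gstp2, at -1.01 in AD thymic lymphoma 5. These genes were chosen because they were shared, after their values were seen.

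The deletions of AD thymic lymphoma 7 were seldom deep in any other tumour. At -1 or lower stood 7 of the 142 in AD thymic lymphoma 6, 1 in AD thymic lymphoma 5 and 0 in each of the others. At -0.3 or lower stood 51 (35.9%) in AD thymic lymphoma 6, where 15.3% of all markers were at that level. In RP thymic lymphoma 2 it was 75 (52.8%), where 39.0% of all markers were. The share of the deletions exceeded that of all markers in 10 of the 13 other lymphomas and lay below it in 3, which were AD thymic lymphoma 4 (15.5% against 22.5%), RP thymic lymphoma 4 (24.6% against 26.0%) and AD thymic lymphoma 3 (17 of 142 against 12.4%). In the sarcomas the number was between 0 and 5. There the share of the deletions exceeded that of all markers in 5 of 10 tumours and lay below it in 5.

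Many of the small deletions of AD thymic lymphoma 7 touched promoters. Of its 124 deletions of 2 to 9 markers, 68 (54.8%) touched a promoter window and 33 touched a pair of genes that start in opposite directions. In the 22 tumours other than AD thymic lymphomas 6 and 7 it was 27 of 77 (35.1%), with 3 such pairs, and in AD thymic lymphoma 6 it was 8 of 19 (42.1%). The Golga2 window printed above, next to the recombination gene Swi5, lay for the most part in a segment of 3 markers at -2.74 in AD thymic lymphoma 7 (2:32288030-32288312). The Rars2 window lies next to Orc3, a subunit of the origin recognition complex, and both genes were touched by 2 markers at -1.96. The Pcna window, before the gene of the DNA polymerase clamp, lay in a segment of 2 markers at -2.01 that covered 9.40% of Pcna and part of Cds2. Golga2 encodes a Golgi matrix protein and Rars2 the mitochondrial arginyl-tRNA synthetase. These windows are shown because of their values.

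The windows touched in AD thymic lymphoma 7 were rich in G and C. Their median content of G and C was 62.4% with 18 CG, against 56% and 10 CG over all 20085 windows. In AD thymic lymphoma 6 the medians were 57.4% and 7 CG, and in the 22 tumours other than AD thymic lymphomas 6 and 7 they were 47.4% and 2 CG. Shallower short losses of AD thymic lymphomas 7 and 6, between -1 and -0.3, touched a promoter window in 30 of 50 (60%) and 45 of 76 (59.2%). The windows touched by these losses had medians of 56.4% and 14 CG in AD thymic lymphoma 7 and 63.6% and 18 CG in AD thymic lymphoma 6. Windows rich in G and C were thus not particular to AD thymic lymphoma 7. Short gains of 0.3 or more in the other 23 tumours did so in 66 of 263 (25.1%). The part of base composition in the depth of these segments was not tested. The Vmn1r windows printed above belong to the other kind, with 2 CG each.

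**Figure D5:**
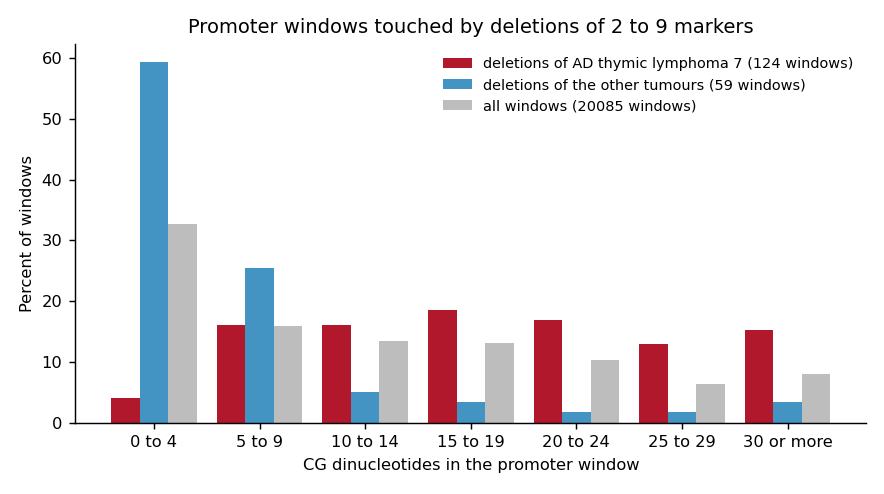
Bars give the percent of promoter windows by their number of CG dinucleotides, for windows touched by deletions of 2 to 9 markers in AD thymic lymphoma 7 (red, 124 windows), in the other 23 tumours (blue, 59 windows) and for all 20085 windows (grey). Windows of 0 to 4 CG are 4.03% of the first, 59.3% of the second and 32.8% of the third set.

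The lowest log2 copy ratios of all stood in other tumours. Tcp10a, a testis gene of the t-complex on chromosome 17, had -4.81 over 2 markers in AD thymic lymphoma 4, a linear ratio of 0.0358. Srp54a, a subunit of the signal recognition particle, had -4.75 over 2 markers in RP thymic lymphoma 1, where the other 23 tumours ran from -0.40 to 0.23. Both rest on 2 markers, the fewest of any segment in these tables. Fam172a and Pou5f2 lay in 9 markers over 222 kb (13:77802454-78024940) at -4.02 in AD thymic lymphoma 3, a linear ratio of 0.0618. This was the best supported of the very deep deletions, and it spans 48.6% of Fam172a and reaches 2.80% of Pou5f2, a POU-domain transcription factor gene. Over it, AD thymic lymphomas 6 and 5 had -0.79 and -0.67, RP thymic lymphomas 6 and 1 had -0.60 and -0.59, and the sarcomas ran from -0.21 to -0.04.

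Next in depth came further genes of AD thymic lymphoma 4 on chromosome 17: H2-T-ps and Gm7030 at -3.65, Vmn2r96 at -3.59, Dcpp3, a salivary protein gene, at -3.51, and Tcte3, a dynein light chain gene, with Gm3435 at -3.31. In RP thymic lymphoma 5, Iltifb, a copy of the interleukin 22 gene, had -3.43 over 4 markers, where the other 23 tumours ran from -0.68 to 0.24. Gene models around Gm3055 on chromosome 10 had -3.19 over 8 markers in the same tumour, and C1ra, above, had -3.18. All 12 deletions at or below -3 belonged to the class of 2 to 9 markers, and AD thymic lymphoma 7, with 142 deletions, had none of them: its lowest value was -2.81.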

How the data were processed

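Exome copy number was measured in 24 tumours; the deposited files hold 1 segment table per tumour, and 4 ear samples are not analysed here. Per the submitters' processing notes the tools were Trim Galore 0.6.5, BWA 0.7.17 and GATK 4.1.0.0 on GRCm38; the sources used here do not give their roles, the settings of the segmentation or the comparison DNA. Segments carry a marker number and a mean, per the file headers. The deposited segment mean was read as a log2 copy ratio; its base is not stated there. Read depth is unknown, so no counting interval is given, and tumours had 211948 to 212450 markers each.

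Deletions were selected as stated above. The members and the gene lists were chosen with earlier results of these data known. Genes and promoter windows came from RefSeq for GRCm38.p6, the build of the files; the table holds whole genes without exons. A tumour's value over a stretch is the mean of its segments there, weighted by overlap. For counts per tumour, exact permutation tests (two-sided) took every split of 7 against 7 or 5 against 5 tumours, or permuted tumour type within genotype, with Benjamini-Hochberg adjustment over 6 tests. For genes, Fisher's exact test (two-sided) ran over all 20665 genes. Each tumour is 1 replicate; no label says that tumours share a mouse. Alternatives were other thresholds of log2, length and markers, centring, joining of neighbours, the left-out intervals kept in, and leaving out tumours. The scan and the permutation tests were tested on simulated data. Python 3.11.15, numpy 2.4.6, pandas 2.3.3, scipy 1.17.1 and matplotlib 3.10.9 were used.

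Genes named in the text are every listed gene touched, up to 5 genes of each deletion with 10 or more markers (the genes of 1 are not reported here), up to 3 genes of each locus with 3 tumours or with such deletions in 2 tumours, and the genes of the 10 lowest deletions in each class; other genes are named as chosen after their values were seen. The pattern for killer lectin receptors was corrected after it had caught other genes.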

Additional observations from a re-analysis of the deposited data

Results flagged for a closer look

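AD thymic lymphoma 7 stood far from the other 6 AD thymic lymphomas in 4 measures. It had 142 deletions, 124 of 2 to 9 markers and 18 of 10 or more markers, and its deletions touched 387 genes. RP thymic lymphoma 1 stood apart from the other RP thymic lymphomas in 2 measures, with 3 deletions of 10 or more markers and 28 genes touched. In each case the gap to the nearest tumour, divided by the range of the group, exceeded Dixon's 95% value. For values that follow a normal distribution chance flags about 1 in 20 groups, and 6 of 20 groups and measures exceeded the value here. Some of these counts are skewed and hold zeros, so that rate need not apply to them. The measures of a tumour overlap, so the flags are not independent.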

How the results depend on the processing

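The counts rest on 7 and 5 tumours a group and on few markers a segment, and neither read depth nor the comparison DNA is known here. By adjusted p, the AD minus RP differences stayed on the same side of the threshold in 23 of 23 alternatives for thymic lymphomas and 18 of 18 for sarcomas, in each class. For lymphomas and 10 or more markers the unadjusted exact permutation p was 0.0122 at a log2 threshold of -0.8. It was 0.0204 without AD thymic lymphoma 1 and 0.0437 without AD thymic lymphoma 2, AD thymic lymphoma 5 or RP thymic lymphoma 1. In the other alternatives it was above 0.05. The differences ran from 1.54 to 32.3 (lymphomas, all), 0.4 to 1.6 (sarcomas, all), 0.857 to 8.43 (lymphomas, 10 or more markers) and -0.6 to 0 (sarcomas, 10 or more markers). Leaving out 1 tumour gave 3.98 to 27.3, 1.05 to 1.85, 1.60 to 4.60 and -0.15 to 0.15. The difference between thymic lymphomas and sarcomas passed with the left-out intervals kept in (23.0, exact permutation, adjusted p = 0.00598; 6.11 for 10 or more markers, adjusted p = 0.000249) and without AD thymic lymphomas 6 and 7 (4.73); leaving out 1 tumour gave 5.95 to 17.6, and 0.769 to 2.27 for 10 or more markers. Without AD thymic lymphoma 7 it passed (5.95, exact permutation, adjusted p = 0.00997). Keeping those intervals in adds the receptor loci, in which 14 of 14 lymphomas and 0 of 10 sarcomas have deep segments; the other causes were not tested. The lymphoma minus sarcoma difference of the AD minus RP differences, an alternative chosen after seeing the data, ran from 2.58 to 25.9 without 1 tumour, and from 1.60 to 4.60 for 10 or more markers. Its adjusted exact permutation p stayed above 0.05, but in the class of 10 or more markers the unadjusted exact permutation p was 0.0254 without AD thymic lymphoma 1 and 0.0448 without AD thymic lymphoma 2 or 5. The gene scans called 0 genes in all 18 and 14 alternatives, by Fisher's exact test. With so few tumours they could not have called a single gene by itself, so these zeros do not measure stability. No paired analysis was made, because only the tumours have segment tables and no label says that tumours share a mouse.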
